A study of Mus musculus with 8 samples.

Results

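A set of 8 neighbours on the distal end of mouse chromosome 4 was followed across 4 groups of mouse embryonic fibroblasts: Prdm2, Pdpn, Vps13d, Dhrs3, Tnfrsf1b, Gm13251, Gm13154 and 2610305D13Rik. They are 8 of the 30419 gene names in the count table, all 8 passed the filter on low counts that left 12255 names, and they were chosen by name from the stretch between Prdm2 and Per3 because differences between the genotypes had been seen to crowd there. Values from the comparison of mutant with wild-type (WT) libraries therefore chose them, and that comparison is described below with no test. The label of genes shifted between genotypes did not hold for Prdm2 and Vps13d, which were called in neither treatment, and it held for Dhrs3 and Gm13251 in control cells alone.

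The cells were early-passage fibroblasts of E13.5 embryos, either Dino lox/lox (mutant) or Dino +/+ (WT). Dino is a long noncoding RNA made beside Cdkn1a, and the labels call the animals with 2 loxP alleles mutants without naming a Cre or the embryos and strain of origin. The groups were mutant cells with 0.2 µg/mL doxorubicin for 8 hours, mutant control cells with vehicle, WT cells with doxorubicin and WT control cells with vehicle, with 2 libraries (A and B) each. Doxorubicin is an anthracycline that traps topoisomerase II on DNA and so breaks it. The labels do not say whether A and B came from separate embryos or cultures, so p-values measure only the spread between these libraries, which may be technical.

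Total counts were 25482805 to 33285171 per library, and 3 counts, the limit that a count of 0 allows, corresponded to 0.0880 to 0.120 CPM (counts scaled for library size). This limit covers counting error only. The 9 fibroblast markers summed to 3244 to 3725 CPM in every library. Col1a2 alone averaged 1744 to 1903 CPM per group, so the sum hides lower markers. Only Thy1 and Dcn of the 9 were called between genotypes, both higher in mutant cells at each treatment. Thy1 differed by 0.35 ± 0.08 with doxorubicin and 0.46 ± 0.08 in control (log2). Dcn differed by 0.26 ± 0.08 and 0.29 ± 0.08. Doxorubicin raised 3 of the 9 and lowered 2 on average. Pdgfrb averaged 3.56 and 12.4 CPM in mutant doxorubicin and mutant control, and 3.82 and 10.8 CPM in WT. Sex-linked RNA separated the genotypes: Xist averaged 522 and 233 CPM in mutant doxorubicin and mutant control libraries, against 0.304 and 0.277 CPM in the WT ones, and the Y-linked Ddx3y, Eif2s3y, Kdm5d and Uty stood in mutant libraries at 11.8% to 15.5% of their WT level. Its part in the genotype differences below was not tested. The level of Dino was not analysed here.

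The members have unrelated functions. Pdpn and Tnfrsf1b encode cell-surface proteins, Prdm2 and the 3 genes with systematic names encode zinc finger proteins, Dhrs3 encodes an enzyme of vitamin A metabolism and Vps13d a lipid carrier. The systematic names stand for Krüppel-associated box (KRAB) zinc finger genes in current nomenclature: Gm13251 is Zfp992, Gm13154 is Zfp985 and 2610305D13Rik is Zfp979. KRAB zinc finger proteins bind DNA, mostly within transposable elements, and recruit TRIM28 to silence it; their genes lie in clusters that arose by duplication and differ between mouse strains, and distal chromosome 4 holds a large one.

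In the GENCODE annotation of GRCm38, to which names were matched because the counts were made on mm9, the 8 genes span chromosome 4 in this order. Prdm2 lies at chr4:143107391-143212995 on the minus strand and Pdpn at chr4:143267431-143299564 on the minus strand. Dhrs3 lies at chr4:144892827-144928209 on the plus strand, with Vps13d at chr4:144972622-145195005 and Tnfrsf1b at chr4:145213463-145246870, both on the minus strand. Gm13251 lies at chr4:146449023-146470292 and Gm13154 at chr4:147553277-147585198, both on the plus strand, and 2610305D13Rik at chr4:147611937-147642513 on the minus strand. No exon of a member overlapped an exon of another gene in that annotation.

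Counts of the zinc finger members are less certain than those of the others, because parts of their transcripts recur elsewhere. Of all 50-base windows of the annotated transcripts, 43.0% in Gm13251, 26.7% in 2610305D13Rik and 15.9% in Gm13154 also occur in transcripts of other genes. The share was at most 0.446% in the other members and 0 in Dhrs3 and Tnfrsf1b. How reads that match several places were counted is not given in the sources used here.

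The promoters of Gm13154 and 2610305D13Rik are shown because these adjacent genes had opposite genotype differences. Each sequence is 300 bases around the annotated start (RefSeq, GRCm38.p6), 5′ to 3′, and capitals mark the 40 bases that have no match in the other. Gm13154 is at chr4:147553027-147553326, plus strand, and 2610305D13Rik at chr4:147642459-147642758, minus strand.
Gm13154: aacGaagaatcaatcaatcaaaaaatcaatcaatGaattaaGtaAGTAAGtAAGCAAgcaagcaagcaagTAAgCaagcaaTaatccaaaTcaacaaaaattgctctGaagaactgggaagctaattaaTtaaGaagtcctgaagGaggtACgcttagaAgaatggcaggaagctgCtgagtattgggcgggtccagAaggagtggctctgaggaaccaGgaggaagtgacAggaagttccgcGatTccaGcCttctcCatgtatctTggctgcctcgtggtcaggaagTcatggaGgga
2610305D13Rik: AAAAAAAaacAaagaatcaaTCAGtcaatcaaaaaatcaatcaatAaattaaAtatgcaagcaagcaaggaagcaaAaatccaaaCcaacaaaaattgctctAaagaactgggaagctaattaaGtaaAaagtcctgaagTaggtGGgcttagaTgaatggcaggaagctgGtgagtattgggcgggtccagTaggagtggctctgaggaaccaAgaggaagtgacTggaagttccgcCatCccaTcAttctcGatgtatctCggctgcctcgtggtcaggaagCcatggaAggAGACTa
The pair matched at 260 of 316 aligned columns (82.3%), with 24 mismatched and 32 gapped columns. The other pairs among the 6 members with a promoter sequence matched at 46.4% to 54.2% of columns.

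The promoters of Pdpn and Tnfrsf1b are shown because the levels of these genes followed each other most closely among the members. Pdpn is at chr4:143299515-143299814 and Tnfrsf1b at chr4:145246821-145247120, both on the minus strand, and capitals mark GC boxes (GGGCGG, either strand).
Pdpn: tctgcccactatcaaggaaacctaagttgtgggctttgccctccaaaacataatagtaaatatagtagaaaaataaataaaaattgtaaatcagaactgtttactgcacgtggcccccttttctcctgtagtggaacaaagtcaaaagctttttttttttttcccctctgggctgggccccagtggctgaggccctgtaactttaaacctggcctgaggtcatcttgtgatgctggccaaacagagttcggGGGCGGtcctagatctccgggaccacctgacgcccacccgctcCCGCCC
Tnfrsf1b: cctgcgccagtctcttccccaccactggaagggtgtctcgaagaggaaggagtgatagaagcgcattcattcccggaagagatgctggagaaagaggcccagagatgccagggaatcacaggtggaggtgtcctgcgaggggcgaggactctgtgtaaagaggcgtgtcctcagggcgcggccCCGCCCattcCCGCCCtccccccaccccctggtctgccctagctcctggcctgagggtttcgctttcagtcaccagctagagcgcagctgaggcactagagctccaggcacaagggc
Both hold 2 GC boxes, a motif found in 35.7% of the 32851 promoters of the table. They hold 7 and 13 CpG dinucleotides, against a median of 7 over all promoters (interquartile range 3 to 20). Neither holds TATAAA, present in 13.6% of promoters on either strand. Prdm2 and Gm13251 had no promoter sequence to search. Those of the other 6 members held no p53 half-site, a motif present in 8.36% of promoters. Such matches describe letters and not binding.

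Pdpn and Tnfrsf1b, the cell-surface members, were lower in mutant than in WT cells at both treatments, with every mutant library below every WT library. Pdpn encodes podoplanin, a mucin-type glycoprotein of fibroblastic and lymphatic endothelial cells that engages CLEC-2 on platelets and binds ezrin and moesin inside the cell. It had 90.5 and 94.5 CPM in mutant doxorubicin and 91.2 and 98.9 CPM in mutant control libraries. In WT cells it had 477 and 432 CPM with doxorubicin and 401 and 376 CPM in control. The fitted difference between mutant and WT, a log2 fold change, was −2.30 ± 0.08 with doxorubicin and −2.03 ± 0.07 in control (SE). In bulk RNA, fewer cells that express a gene and less of its RNA per cell cannot be told apart. Summed endothelial markers, 7 genes with none at 0 in all libraries, had 10.2 to 11.1 and 3.80 to 3.88 CPM in mutant doxorubicin and mutant control, against 11.1 to 15.4 and 4.05 to 5.63 CPM in WT. Of these markers, Pecam1, Prox1 and Lyve1 were below the filter. Tek averaged 4.49 and 0.427 CPM in mutant doxorubicin and mutant control, and 7.52 and 0.977 CPM in WT. Flt4 averaged 4.69 and 2.22 CPM in mutant doxorubicin and mutant control, and 3.94 and 2.18 CPM in WT. The part of the endothelial markers in the Pdpn values was not tested.

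Tnfrsf1b encodes TNF receptor 2, which binds membrane-bound TNF and signals through TRAF2 without a death domain. It had 1.32 and 1.30 CPM in mutant doxorubicin libraries and 1.24 and 1.25 CPM in mutant control libraries. WT libraries had 9.31 and 8.20 CPM with doxorubicin and 7.58 and 8.89 CPM in control. The log2 differences, −2.73 ± 0.18 at both treatments, correspond to 6.65-fold and 6.62-fold lower levels in mutant cells with and without doxorubicin. Macrophages also make this receptor: 8 macrophage markers, none at 0 in all libraries, summed to 34.3 to 39.1 CPM in mutant doxorubicin and 29.3 to 29.7 CPM in mutant control, against 33.6 to 35.3 and 22.4 to 23.5 CPM in WT. Between genotypes, 1 of the 8 was called at each treatment, against 7.74% of all genes with doxorubicin and 5.92% in control. Csf1r was higher in mutant doxorubicin cells by 1.01 ± 0.25 (edgeR adjusted p = 0.0144). Ptprc was higher in mutant control cells by 0.67 ± 0.18 (edgeR adjusted p = 0.0235). The part of the macrophage markers in the Tnfrsf1b values was not tested.

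The zinc finger members went in both directions. 2610305D13Rik, also named Ssm1b as a strain-specific modifier of DNA methylation, was lower in mutant cells. It had 1.20 and 0.751 CPM in mutant doxorubicin and 0.583 and 0.339 CPM in mutant control libraries. WT libraries had 5.73 and 5.98 CPM with doxorubicin and 7.21 and 4.34 CPM in control. The groups did not overlap between genotypes, and the log2 differences were −2.58 ± 0.27 with doxorubicin and −3.62 ± 0.30 in control (SE).

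Its neighbour Gm13154 was higher in mutant cells and had 1 to 3 counts in each WT library. It had 26 and 71 counts in mutant doxorubicin and 49 and 45 counts in mutant control libraries, against 2 and 3 counts in WT doxorubicin and 1 and 1 in WT control libraries. In CPM, this was 1.04 and 2.81 in mutant doxorubicin and 1.68 and 1.53 in mutant control. The ratio of summed counts, scaled to library size, was 24.0 with doxorubicin (95% exact counting interval 9.93 to 75.5) and 48.9 in control (13.2 to 409). The intervals cover counting error only, and the WT counts are at or under the limit of 3 counts.

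Gm13251 and Dhrs3 had another pattern, in which WT control libraries stood alone above the other 6. Gm13251 had 1.08 and 1.26 CPM in mutant doxorubicin and 1.30 and 1.05 CPM in mutant control libraries. It had 1.03 and 1.31 CPM in WT doxorubicin and 2.34 and 2.58 CPM in WT control libraries. Dhrs3, a reductase that turns retinaldehyde back into retinol and is a reported p53 target in human cells, had 0.640 and 1.11 CPM in mutant doxorubicin and 0.515 and 1.15 CPM in mutant control libraries. It had 0.662 and 0.563 CPM in WT doxorubicin and 3.16 and 3.08 CPM in WT control libraries. The difference between mutant and WT in control was −1.90 ± 0.30 for Dhrs3 and −1.07 ± 0.25 for Gm13251 on the log2 scale, whereas with doxorubicin it was 0.51 ± 0.39 for Dhrs3 and −0.0002 ± 0.28 for Gm13251.

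Prdm2 and Vps13d overlapped between the genotypes or lay close together. Prdm2 encodes a member of the PRDM family, zinc finger proteins with a domain related to histone methyltransferases. It had 15.4 and 14.2 CPM in mutant doxorubicin, 15.0 and 10.3 CPM in mutant control, 15.1 and 15.0 CPM in WT doxorubicin and 11.3 and 10.6 CPM in WT control libraries. Vps13d encodes a bridge-like protein that moves lipids between membranes and is needed for mitochondrial clearance. It had 4.36 and 4.47 CPM in mutant doxorubicin, 3.36 and 3.29 CPM in mutant control, 3.97 and 3.63 CPM in WT doxorubicin and 3.31 and 3.05 CPM in WT control libraries. Their genotype differences lay between −0.02 and 0.22 on the log2 scale.

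**Figure D1:**
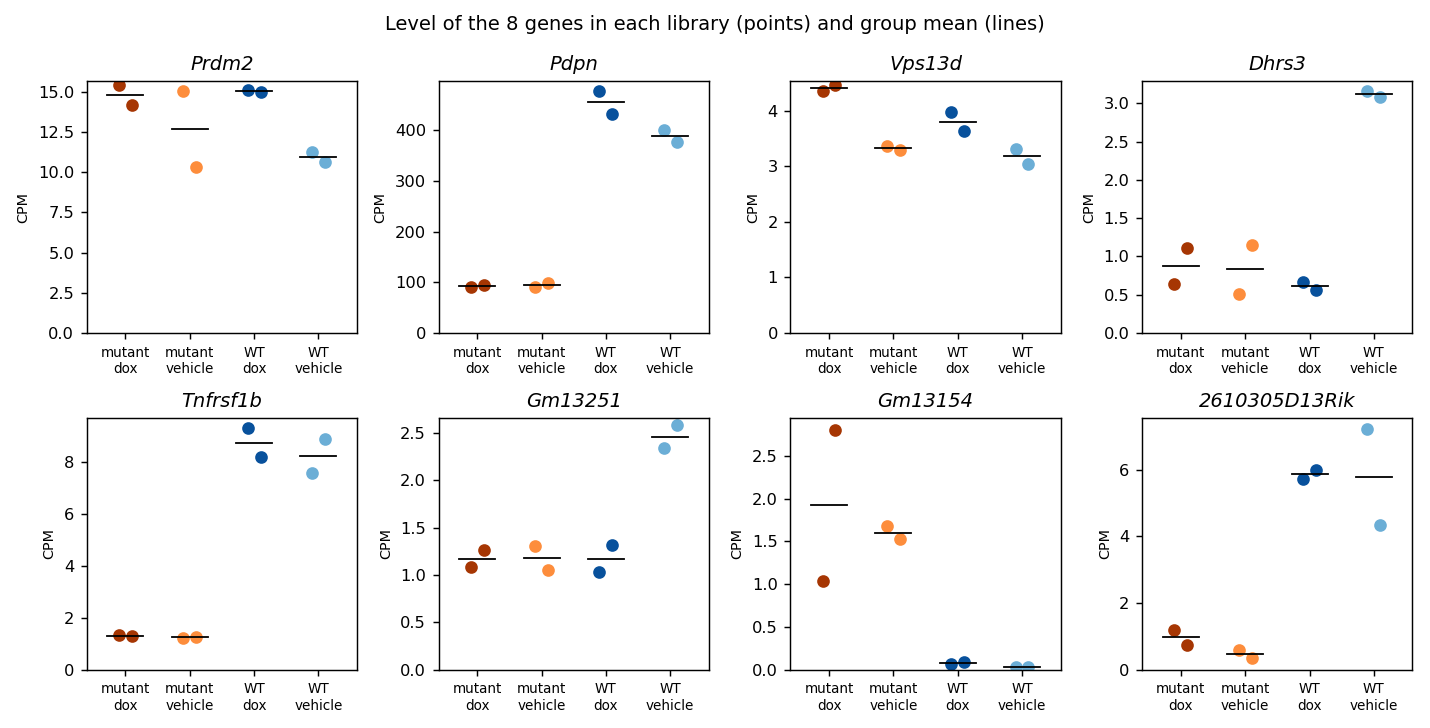
CPM of each member (y axis, from 0) in the 2 libraries (points) of mutant doxorubicin, mutant control (vehicle), WT doxorubicin and WT control cells, with group means as lines. Pdpn, Tnfrsf1b and 2610305D13Rik are lower and Gm13154 is higher in all mutant libraries, and Dhrs3 and Gm13251 are high in WT control libraries alone.

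Between mutant and WT libraries, 4 members were called with doxorubicin (1 higher and 3 lower) and 6 in control (1 higher and 5 lower), where called means an adjusted p under 0.05 in edgeR's quasi-likelihood fit. Over all 12255 genes tested, 7.74% were called with doxorubicin (3.92% higher, 3.82% lower) and 5.92% in control (2.75% higher, 3.17% lower). The members were selected on this contrast, so nothing is read from their share. The median of the members' genotype log2 fold changes was −0.01 with doxorubicin and −1.48 in control, against −0.001 and −0.003 over all genes.

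Of the 118 names placed from Prdm2 to Per3, 50 were tested: the 8 members and 42 others. The stretch itself had been selected for its genotype differences, so its counts are also given as a description. Among the 42 others, 11 (26.2%) were called with doxorubicin and 8 (19%) in control, against 11.4% and 7.39% of the 690 tested genes elsewhere on chromosome 4. Of the 42, 7 (16.7%) were called at both treatments, as were 4 of the 8 members, 5.51% of the rest of the chromosome and 3.67% of all genes tested (450 of 12255), all with the same sign at both treatments. In consecutive blocks of 25 tested genes along the chromosome, the block from Fblim1 to Miip, which holds all 8 members, had 36% called with doxorubicin and 32% in control. The other 29 blocks had 0 to 24% with doxorubicin and 0 to 20% in control. Of the 9 and 8 genes called in the block from Fblim1 to Miip, 4 and 6 were members, chosen on this contrast. Nothing is therefore read from its rank.

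**Figure D2:**
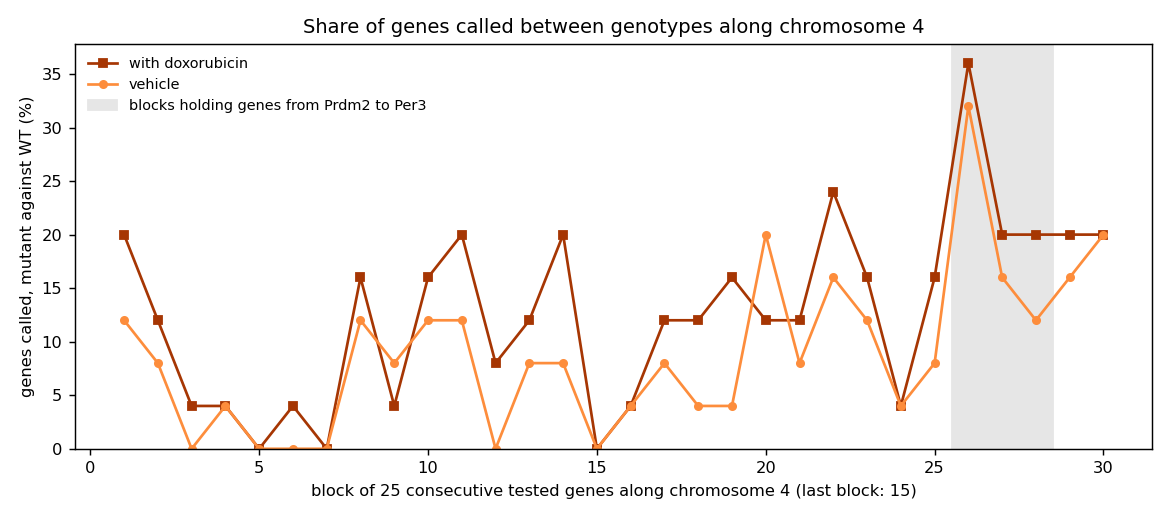
Share of genes called between mutant and WT (y axis, %) in 30 consecutive blocks of tested genes along chromosome 4 (x axis), with doxorubicin (squares) and in vehicle control (circles). The block with all 8 members, at the left of the shaded stretch, is highest at both treatments, at 36% and 32%. Of its 9 and 8 called genes, 4 and 6 are members, which were chosen on this contrast.

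The neighbours called at both treatments without overlap between genotypes went in both directions, as the members did. Angptl7, a secreted angiopoietin-like protein, was higher in mutant cells by 2.25 ± 0.22 with doxorubicin and 2.25 ± 0.18 in control on the log2 scale. Zfp933, a zinc finger gene of the same cluster, was higher by 1.34 ± 0.16 with doxorubicin and 1.40 ± 0.15 in control, and the clock gene Per3 by 0.80 ± 0.18 and 0.66 ± 0.19. Ctnnbip1, an inhibitor of beta-catenin, was higher by 0.50 ± 0.09 with doxorubicin and 0.35 ± 0.09 in control. The other 3 were lower in mutant cells at both treatments. The zinc finger gene Gm13157 (now Zfp984) had −1.28 ± 0.15 with doxorubicin and −2.08 ± 0.16 in control, and 54.5% of its 50-base windows recur in other transcripts. Nppb, which encodes B-type natriuretic peptide, had −1.73 ± 0.25 and −1.10 ± 0.32, and the nuclear receptor corepressor Rere −0.47 ± 0.09 and −0.62 ± 0.09.

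Of 14 genes placed in the stretch that are named as Zfp or Znf genes in current nomenclature or as Rex2, a set that leaves out Prdm2, 6 were tested and 5 had no count in any library. Gm13152 (Zfp982), below the filter, had 0 counts in the 4 mutant libraries, against 12 in WT doxorubicin and 6 in WT control libraries. The 6 tested genes did not share 1 direction. At both treatments 2610305D13Rik and Gm13157, which follow each other, were lower in mutant cells, and Gm13154 and Zfp933 were higher. Gm13251 was lower in control alone. Znf41-ps had −3.42 ± 0.85 with doxorubicin and −1.07 ± 0.61 in control on the log2 scale. Its counts were 2 in mutant doxorubicin and 11 in mutant control, against 29 and 24 in WT.

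**Figure D3:**
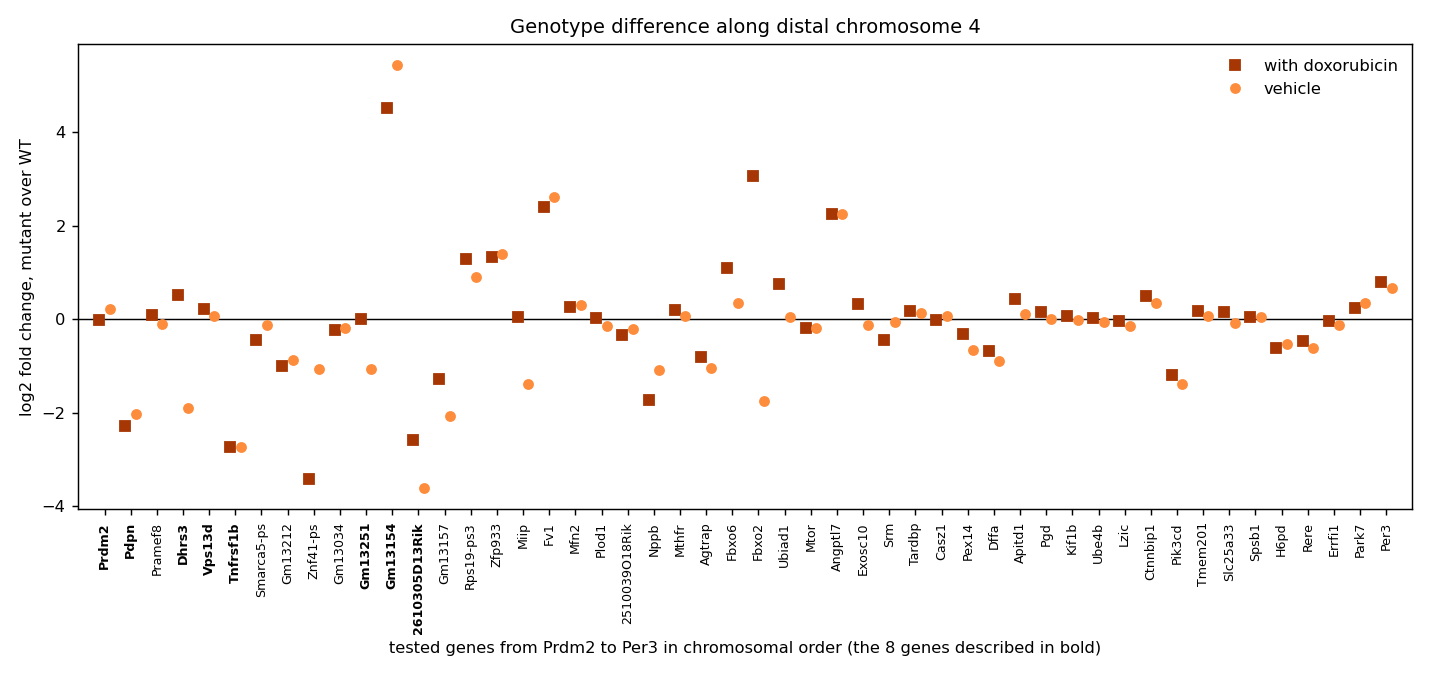
Log2 fold change of mutant over WT (y axis) for the 50 tested genes from Prdm2 to Per3 in chromosomal order (x axis), with doxorubicin (squares) and in vehicle control (circles); members are in bold. Members reach from −3.62 (2610305D13Rik) to 5.44 (Gm13154) in control, and the fitted value of Gm13154 depends on 1 to 3 counts per WT library.

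Doxorubicin changed 5 of the 8 members on average over the genotypes. Prdm2, Vps13d and 2610305D13Rik rose, and Dhrs3 and Gm13251 fell. The rise of 2610305D13Rik came with a response of 1.07 ± 0.42 on the log2 scale in mutant cells and 0.04 ± 0.20 in WT cells. All doxorubicin contrasts use libraries that also entered the genotype differences behind the choice of members. For Dhrs3 and Gm13251, those differences came from the high WT control libraries, which are also the baseline of the drug response, so their average and WT responses are given as a description with no p. For 2610305D13Rik, the larger genotype difference came with the low mutant control libraries, the baseline of its response in mutant cells. Its responses are likewise given with no p. The drug called 66.4% of all 12255 genes in this contrast (33.7% higher, 32.6% lower), so the members' share, 62.5%, was near the background. Their median log2 fold change was 0.21, against 0.02 over all genes.

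Dhrs3 had the largest average response among the members, a fall by 1.14 ± 0.25 on the log2 scale (SE), and Gm13251 fell by 0.54 ± 0.19. The call of Gm13251 was lost in DESeq2 and in edgeR after omission of mutant doxorubicin A, mutant control A, WT doxorubicin A or WT control B. Prdm2 rose by 0.34 ± 0.09 (edgeR quasi-likelihood test, Benjamini-Hochberg adjusted p = 0.00321), a call that held without any single library and at every alternative setting. Vps13d rose by 0.33 ± 0.12 (edgeR adjusted p = 0.0168) and 2610305D13Rik by 0.56 ± 0.23. Both calls were lost in DESeq2 (adjusted p = 0.0795 for Vps13d) and without WT control B in edgeR. That of Vps13d was also lost without WT doxorubicin A (edgeR adjusted p = 0.0555). That of 2610305D13Rik was also lost with upper-quartile factors, in limma-voom, and without WT doxorubicin B, mutant control B or mutant doxorubicin A.

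Pdpn and Tnfrsf1b were not called on average. Their average responses were 0.09 ± 0.05 and 0.08 ± 0.14 on the log2 scale (edgeR adjusted p = 0.114 and 0.633). Pdpn passed without WT doxorubicin B (edgeR adjusted p = 0.0332) and with a filter of 5 CPM in 2 libraries (0.0382). For Gm13154 no average is given, since every WT library had 3 counts or fewer; its response in mutant cells was 0.26 ± 0.34 (edgeR adjusted p = 0.542), and without mutant doxorubicin A, which had 26 counts against 71 in B, it was 0.81 (0.0440). Without mutant doxorubicin B it was −0.62 (edgeR adjusted p = 0.237).

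In mutant cells, 2 members were called with doxorubicin, both higher, against 54.2% of all genes called (28.3% higher, 25.9% lower). These were 2610305D13Rik, by 1.07 ± 0.42, and Vps13d, by 0.41 ± 0.17 (edgeR adjusted p = 0.0448). The 2610305D13Rik libraries with doxorubicin lay above those without, at 30 and 19 counts against 17 and 10. The low mutant control libraries had also given the larger genotype difference of this gene. The call of 2610305D13Rik was lost without mutant control B or mutant doxorubicin A, and in limma-voom. That of Vps13d was lost in DESeq2, with no filter and with upper-quartile factors (adjusted p = 0.162, 0.0842 and 0.0807), and without any 1 of 6 libraries, all but the WT control ones (edgeR adjusted p from 0.0504 to 0.141). Prdm2 had 0.22 ± 0.13 in mutant cells (edgeR adjusted p = 0.170), with its control libraries at 15.0 and 10.3 CPM; without control A, the higher one, the response was 0.51 (0.00499), and without control B it was −0.02 (0.925).

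In WT cells, 4 members were called, against 57.4% of all genes (29.3% higher, 28.1% lower). Dhrs3 fell by 2.34 ± 0.32 on the log2 scale, to a level 5.07-fold lower than in control, and Gm13251 fell by 1.07 ± 0.25 (SE). For both genes the doxorubicin libraries lay below the control libraries, and these are the WT control libraries whose height had given the genotype difference that chose them. Prdm2 rose by 0.46 ± 0.13 (edgeR adjusted p = 0.00554) and Pdpn by 0.23 ± 0.07. For Pdpn, the larger genotype difference came with the high WT doxorubicin libraries, which also enter its response in WT cells. That response is given with no p. Without WT control B these 2 calls were lost, at 0.42 for Prdm2 and 0.18 for Pdpn. That of Pdpn was also lost without WT doxorubicin A, at 0.15.

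The difference between the responses, mutant minus WT, is the comparison that asks whether Dino alters the response to damage. It equals the genotype difference with doxorubicin minus that in control, the values that had served to choose the members. The members' differences are therefore described by size, with no adjusted p. No member passed in edgeR, DESeq2 or limma-voom, and 0.0734% of all genes, 9 of 12255, were called in edgeR. An unadjusted p under 0.05 in edgeR was reached by 4 members (Dhrs3, Gm13251, Pdpn and 2610305D13Rik), against 697 of all 12255 genes. Nothing is read from the members' share, since they were chosen on the differences that make up this contrast. For Dhrs3, with 0.07 ± 0.38 in mutant cells and −2.34 ± 0.32 in WT cells, the difference was 2.41 ± 0.50. Over the alternatives, the difference of Dhrs3 ran from 1.94 to 3.10. Gm13251 had 1.07 ± 0.38, 2610305D13Rik 1.04 ± 0.47 and Pdpn −0.27 ± 0.10.

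**Figure D4:**
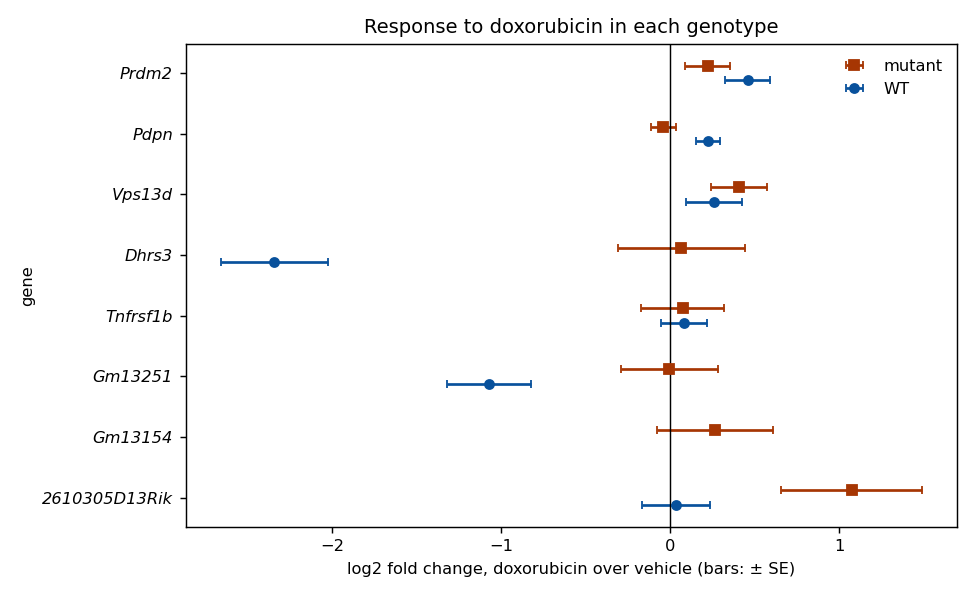
Log2 fold change of doxorubicin over vehicle control (x axis) for each member in mutant (squares) and WT (circles) cells, with bars of 1 SE; the WT value of Gm13154 is left out because each WT library had 3 counts or fewer. Dhrs3 and Gm13251 stand apart with WT values of −2.34 and −1.07 beside mutant values of 0.07 and −0.004.

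The genes that work with the members were read from lists of known partners. Over all 12255 genes tested, 66.4% were called on average with doxorubicin (33.7% higher, 32.6% lower). Between genotypes, 7.74% were called with doxorubicin and 5.92% in control. No pathway response is read from the counts of the lists. Of the podoplanin partners, Pdpn included, 8 of 10 were tested. Doxorubicin raised 4 and lowered 2 on average, with a median log2 fold change of 0.13. Lgals8, a galectin, rose by 1.22 ± 0.08 (edgeR adjusted p = 1.04e-11), whereas Rdx, a cytoskeletal linker of the ezrin family, fell by 0.61 ± 0.04 (6.24e-11) and Cd44, a hyaluronan receptor, by 0.29 ± 0.05 (7.18e-06). Between genotypes, besides Pdpn, Ezr was lower in mutant control cells at −0.43 ± 0.11 (edgeR adjusted p = 0.0180) and the tetraspanin Cd9 in mutant doxorubicin cells at −0.28 ± 0.07 (0.00933). The call of Ezr was lost without WT control A, WT control B or mutant control A (edgeR adjusted p = 0.0979, 0.1003 and 0.298) and that of Cd9 without mutant doxorubicin A (0.110).

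For TNF receptor signalling, 16 of 20 genes were tested, and 6 rose and 2 fell with doxorubicin on average (median 0.21). Of all genes tested, 33.7% were called higher and 32.6% lower. Tnfaip3, a feedback inhibitor of NF-κB, rose by 1.48 ± 0.08 (edgeR adjusted p = 5.53e-13), and Nfkbia, which holds NF-κB in the cytoplasm, by 0.94 ± 0.06 (1.80e-11). Tnfrsf1a, the receptor with a death domain that shares its ligand with Tnfrsf1b, rose by 1.01 ± 0.14 (edgeR adjusted p = 1.72e-06). It had 4.56 and 4.23 CPM in mutant doxorubicin and 1.78 and 2.20 CPM in mutant control, against 5.03 and 4.22 CPM in WT doxorubicin and 2.08 and 2.91 CPM in WT control libraries. Between genotypes, 1 of the 16 was called at each treatment, Tnfrsf1b itself.

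For retinoid metabolism and signalling, 16 of 23 genes were tested, and 4 rose and 3 fell with doxorubicin on average, Dhrs3 among them (median 0.14). The share called over all genes was 66.4%. Aldh1a3, which makes retinoic acid, rose by 1.27 ± 0.06 (edgeR adjusted p = 7.53e-14) and its relative Aldh1a2 fell by 0.77 ± 0.26 (0.0118). The receptor Rxra rose by 0.54 ± 0.14 (edgeR adjusted p = 0.00153). Between genotypes, 3 of the 16 were called with doxorubicin and 5 in control, Dhrs3 included, against 7.74% and 5.92% of all genes. Crabp1, a binding protein for retinoic acid, was higher in mutant cells by 1.03 ± 0.10 with doxorubicin (edgeR adjusted p = 2.39e-07) and 1.05 ± 0.10 in control (1.48e-07). Crabp2, which carries it to the nucleus, was lower at −1.20 ± 0.21 with doxorubicin (edgeR adjusted p = 0.000501) and −0.67 ± 0.19 in control (0.0420). Aldh1a1 was lower at −0.78 ± 0.21 with doxorubicin (edgeR adjusted p = 0.0228) and −1.11 ± 0.22 in control (0.00192), and Aldh1a3 was higher in control by 0.33 ± 0.09 (0.0295). Without mutant control A the calls in control of Crabp2, Aldh1a1 and Aldh1a3 were lost (edgeR adjusted p = 0.308, 0.0501 and 0.150), as they were without WT control B (0.300, 0.0598 and 0.0750). Those of Crabp2 and Aldh1a3 were also lost without mutant control B (0.121 and 0.174) or WT control A (0.0884 and 0.227), and that of Crabp2 in DESeq2 (0.220) and with upper-quartile factors (0.0510). The call of Aldh1a1 with doxorubicin was lost without mutant doxorubicin A or WT doxorubicin A (0.227 and 0.133) and in DESeq2 (0.0952), and the response of Aldh1a2 without mutant control A or mutant doxorubicin B (0.0607 and 0.0525) and in DESeq2 (0.0646).

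Of the KRAB repression machinery, all 10 genes were called on average over the genotypes, 2 higher and 8 lower (median −0.45). Over all genes, 66.4% were called (33.7% higher, 32.6% lower). Trim28, the corepressor recruited by KRAB domains, fell by 1.01 ± 0.08 (edgeR adjusted p = 5.44e-10), Cbx3, a heterochromatin protein, by 1.66 ± 0.08 (1.66e-13), and Uhrf1, which guides maintenance DNA methylation, by 1.69 ± 0.06 (2.87e-16). Of the 3 KRAB zinc finger members, 2610305D13Rik rose on average, with 0.04 ± 0.20 in WT cells, and Gm13251 fell. With doxorubicin, Uhrf1 was higher in mutant cells by 0.36 ± 0.09 (edgeR adjusted p = 0.0112) and the heterochromatin protein Cbx5 by 0.25 ± 0.07 (0.0293). The call of Uhrf1 was lost without WT doxorubicin A or mutant doxorubicin A (edgeR adjusted p = 0.129 and 0.173). That of Cbx5 was lost without those libraries (0.307 and 0.156) or mutant doxorubicin B (0.107), and in a fit of the 2 compared groups alone (0.0684).

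In the PRDM family, 10 of 15 genes were tested, and 5 rose, Prdm2 among them, and 3 fell (median 0.24). The share called over all genes was 66.4%. Prdm8 rose by 2.85 ± 0.13 (edgeR adjusted p = 3.05e-14) and Mecom fell by 1.21 ± 0.05 (2.03e-15). Prdm13 had no count in the 4 control libraries. Against 3 counts over both control libraries of a genotype, it was at least 18.2-fold higher with doxorubicin in mutant cells and at least 19.0-fold higher in WT cells, and the list's median was the same with this bound in place of the fitted value. Prdm1 was higher in mutant control cells by 1.94 ± 0.28 (edgeR adjusted p = 7.71e-05), and Mecom was lower at −0.30 ± 0.07 with doxorubicin (0.00609) and −0.32 ± 0.07 in control (0.00288), where the call was lost without mutant control A or WT control A (0.0563 and 0.0665).

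All 6 genes of the VPS13 and ATG2 family of lipid transfer proteins were tested, and 5 rose, Vps13d among them (median 0.51). Of all genes tested, 33.7% were called higher and 32.6% lower. The remaining one, Vps13b, had −0.25 ± 0.12 (edgeR adjusted p = 0.0661). Vps13c rose by 2.08 ± 0.20 (edgeR adjusted p = 1.03e-08), Atg2b by 0.90 ± 0.06 (3.85e-12) and Atg2a by 0.68 ± 0.30 (0.0495). The Atg2a call was lost in 12 of 16 alternatives, among them the omission of any single library, with an adjusted p of 0.0565 to 0.176. Over all genes, the median average response was 0.02.

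Among the members, likeness of pattern was described by Pearson's r of log2 CPM over the 8 libraries, which share the 4 groups. Pdpn and Tnfrsf1b had an r of 0.996, and Gm13154 ran opposite to both, at −0.966 with Pdpn and −0.976 with Tnfrsf1b. Dhrs3 and Gm13251, the members high in WT control cells alone, had 0.853. Over all tested genes, the Y-linked translation factor gene Eif2s3y (0.998) and Usmg5 on chromosome 19 (0.996) were most like Pdpn. Pdpn followed by Eif2s3y (0.994) was most like Tnfrsf1b. In mutant cells Eif2s3y stood at 14.8% and 15.5% of its WT level with and without doxorubicin, Tnfrsf1b at 15.0% and 15.1%, and Pdpn at 20.4% and 24.5%. The genotype of every library and its sex-linked RNA went together, so they cannot be told apart here.

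The nearest patterns of 5 other members were on several chromosomes. Gm13154 was most like Shoc2 (0.989) and Thbs2 (0.986), and 2610305D13Rik most like Cyp11b1 (0.984) and Hmgn2 (0.981). Gm13251 was most like Egr2 (0.963) and Tgfbi (0.959). Prdm2 was most like Dgkh (0.966) and Acbd4 (0.965), and Vps13d most like Kitl (0.984) and Gdf6 (0.983). With 8 libraries in 4 groups and 12255 genes to choose from, such values describe these libraries only.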

How the data were processed

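RNA of 8 libraries was measured; the labels' protocols name both 3' sequencing and an exome-capture kit. Per the submitters' processing notes, Bowtie2, HTSeq and mm9 were used; versions, annotation, strand setting and the handling of reads with several matches are not given in the sources used here. What the authors deposited is 1 table of raw read counts by gene name, not normalized. They were fitted by edgeR 4.0.16 (R 4.3.3) after filterByExpr (minimum count 10, total 15) and TMM scaling; the quasi-likelihood model had a term for each of the 4 groups (4 residual degrees of freedom), with two-sided p-values adjusted by Benjamini-Hochberg over 12255 genes. CPM use TMM-scaled totals, and log2 CPM for correlations a prior count of 2. The SE is the log2 fold change divided by the square root of F. The procedure was tested on simulated data. Members, lists and tests were chosen with earlier results of these data known. Named were all members, neighbours called at both treatments without overlap (at least 1 CPM), up to 3 responders per list, list genes called between genotypes, and 2 nearest patterns per member (those of Dhrs3 are not reported here). Alternatives used DESeq2 1.42.0, limma 3.58.1, other scalings, filters and thresholds, a replicate block and omission of each library. Libraries A and B differed by 18.8 in chi-square per degree of freedom in WT doxorubicin, and by 5.71 to 6.51 in the other groups. A library counted again would give about 1. Names were matched to GENCODE and RefSeq on GRCm38, which placed 96.7% of tested names; promoter motifs and windows were read from these.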

Additional observations from a re-analysis of the deposited data

Results flagged for a closer look

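Prdm16, a PRDM family gene read beside Prdm2, differed between the genotypes in its response to doxorubicin. It had 2.92 and 2.96 CPM in mutant doxorubicin and 2.54 and 1.59 CPM in mutant control, against 1.62 and 1.25 CPM in WT doxorubicin and 3.68 and 3.11 CPM in WT control libraries. The difference between the responses, mutant minus WT, was 1.75 ± 0.33 on the log2 scale (edgeR quasi-likelihood test, adjusted p = 0.0425). The adjusted p was 0.0671 in DESeq2 and 0.0705 in limma-voom. It reached 0.253 without WT control A and exceeded 0.05 without any 1 of 7 libraries, all but WT doxorubicin A. With doxorubicin, Prdm16 was higher in mutant cells by 1.04 ± 0.24 (edgeR adjusted p = 0.00907, and 0.0657 without WT doxorubicin B).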

How the results depend on the processing

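The number of members called on average with doxorubicin, 5, was 2 in DESeq2 and 3 with a filter of 5 CPM in 2 libraries, under which fewer members were tested, and 2 to 5 without each library in turn. For mutant cells, 2 members became 1 with upper-quartile factors, DESeq2, limma-voom, no filter or 5 CPM, and 0 to 2 without each library. For WT cells, 4 became 2 at 5 CPM and 2 to 4 without each library. For the difference between the responses, 0 became 1 (Dhrs3) with no filter or an adjusted p under 0.10. The members were chosen on the genotype differences that make up this contrast, so nothing is read from that call. The size of the Dhrs3 difference ran from 1.94 to 3.10 over the alternatives. Genes called between genotypes from Prdm2 to Per3, 15 with doxorubicin and 14 in control, were 9 with doxorubicin in DESeq2, 9 and 8 at 5 CPM, and 11 to 15 and 9 to 14 without each library. The cause of these changes was not tested beyond the smaller number of genes or libraries. Changes of sign were limited to values not called with all 8 libraries, in edgeR and in the alternatives run. With upper-quartile factors, 2610305D13Rik had −0.015 in WT; in limma-voom, Gm13251 had 0.0033 in mutant cells and Tnfrsf1b 0.00073 for the difference. Without each library in turn, log2 values that changed sign ran from −0.029 to 0.21 (Tnfrsf1b) and −0.30 to 0.43 (2610305D13Rik) in WT cells. In mutant cells they ran from −0.018 to 0.51 (Prdm2), −0.10 to 0.024 (Pdpn), −0.40 to 0.76 (Dhrs3), −0.15 to 0.15 (Gm13251) and −0.62 to 0.81 (Gm13154). For the difference they ran from −0.48 to 0.049 (Prdm2) and −0.13 to 0.11 (Tnfrsf1b). The letters A and B did not pair the libraries (correlations of A minus B between groups −0.02 to 0.03). With a replicate block on the letter, 5, 2, 4 and 0 members were called on average, in mutant, in WT and for the difference, and 15 and 13 genes of the stretch with doxorubicin and in control. Where an arm was left with 1 library, that library was assumed to vary like the other groups. Depth limits Gm13154 most, with 1 to 3 counts per WT library.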
